A study of Mus musculus with 24 samples.

Results

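The genes described here are 33 members of the sterol and fatty acid synthesis system that is controlled by the SREBP transcription factors. They were chosen by symbol from 45792 genes in the deposited values, of which 24874 were not at 0 in all libraries. All 33 had values other than 0, and 32 passed the minimum mean log2 value of 4 over the 12 libraries that was set for testing. The member that did not is Me1, the cytosolic malic enzyme, which stood between 2.92 and 3.37. The sterol arm holds 19 enzymes, 8 up to the isoprenoids (the mevalonate part) and 11 from squalene synthesis onwards (the sterol part). The fatty acid arm holds 7 enzymes, 6 members regulate SREBP itself, and Stard4 carries cholesterol between membranes.

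RNA was sequenced from CD11c+ MHC class II+ cells, which the submitters call liver dendritic cells, of C57BL/6 mice. All mice were female and had eaten a methionine and choline deficient (MCD) diet for 2 weeks, a dietary model of fatty liver inflammation, so no group was on a normal diet. They received DiI-labelled liposomes, DiI being a lipophilic dye, which were empty or carried curcumin, a polyphenol of turmeric, and the cells were taken 24 hours later. Cells with the dye (DiI-positive, liposomes taken up) and cells without it (DiI-negative) were sequenced apart, which gives 4 groups of 3 libraries. The labels do not state whether libraries of the same group stem from different mice or pools, so a p-value here reflects only how much these libraries varied, and that variation may be technical.

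Cells make cholesterol from acetyl-CoA by way of mevalonate, isoprenoids, squalene and lanosterol, and fatty acids from the same acetyl-CoA by way of malonyl-CoA. The SREBP proteins are made as membrane-bound precursors in the endoplasmic reticulum and held there with Scap by the Insig proteins while sterols are plentiful. When sterols run low, Scap escorts the precursor to the Golgi, the proteases encoded by Mbtps1 and Mbtps2 release its active part, and this enters the nucleus and binds sterol regulatory elements, usually beside sites for NF-Y and Sp1. SREBP2, the product of Srebf2, acts mainly on sterol genes, and related isoforms mainly on fatty acid genes. The LXR receptors respond to excess sterol in the opposite sense and turn on efflux genes. Macrophages and dendritic cells adjust both programmes to the lipid they ingest.

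Promoter windows of 250 bases upstream of the RefSeq start (build GRCm38.p6) were found for 28 of the 33 members. They are shown for the mevalonate enzymes Hmgcs1 and Mvd and the fatty acid synthase Fasn, since these 3 were lower in DiI-positive cells and their windows lie wholly upstream of the annotated gene. Capitals mark 2 motifs searched on both strands, the sterol regulatory element core TCACNCCAC and the NF-Y box CCAAT, which reads ATTGG on the other strand. The Hmgcs1 window is chr13:119690101-119690350 (plus strand), the Mvd window chr8:122443423-122443672 (minus strand) and the Fasn window chr11:120824548-120824797 (minus strand).
Hmgcs1: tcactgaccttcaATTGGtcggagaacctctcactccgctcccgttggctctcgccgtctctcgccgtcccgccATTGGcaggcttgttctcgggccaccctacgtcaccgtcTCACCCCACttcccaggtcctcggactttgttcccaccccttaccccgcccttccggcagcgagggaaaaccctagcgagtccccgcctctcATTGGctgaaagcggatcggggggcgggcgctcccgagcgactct
Mvd: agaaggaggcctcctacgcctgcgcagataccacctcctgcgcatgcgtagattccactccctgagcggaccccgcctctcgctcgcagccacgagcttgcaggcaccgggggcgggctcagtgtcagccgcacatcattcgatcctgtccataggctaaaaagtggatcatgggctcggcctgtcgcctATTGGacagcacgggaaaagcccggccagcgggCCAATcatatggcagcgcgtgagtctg
Fasn: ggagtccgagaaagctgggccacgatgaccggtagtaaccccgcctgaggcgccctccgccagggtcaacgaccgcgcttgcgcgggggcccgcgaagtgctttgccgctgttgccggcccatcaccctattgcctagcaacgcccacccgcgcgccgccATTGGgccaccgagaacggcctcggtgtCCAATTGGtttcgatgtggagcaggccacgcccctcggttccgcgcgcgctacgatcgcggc
The Hmgcs1 window holds the element core TCACCCCAC from 137 to 129 bases before the start, and NF-Y boxes that begin 237, 176 and 45 bases before it. Mvd has NF-Y boxes beginning 60 and 27 bases before its start. Fasn has one beginning 90 bases before its start and a pair that overlap, beginning 62 and 59 bases before it on opposite strands.

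Among the members with a window, Hmgcs1 alone held an exact match to the element core, which 1.05% of 32851 windows of that length in the genome held. Near matches to the core were not searched, so variants of the element would be missed. The NF-Y box was in at least 1 window of 20 of 28 members and in 57.1% of their 35 windows, against 33.8% of all windows. Of the 7 members with a window that were lower in DiI-positive cells, 6 held it (Hmgcs1, Mvd, Cyp51, Msmo1, Fasn and Srebf2), as did 14 of the other 21. The Sp1 box GGGCGG, again on both strands, was in 68.6% of member windows and 32.7% of all windows. The E-box CANNTG, to which SREBP can also bind, was in 68.6% and 66.2%. These are matches of letters in a short window, and they are given as a description.

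Values are the authors' deposited log2 values. Their transform is not stated, but low values appear to be shrunk, so a fold change may understate the change of genes near the floor. Differences are given with their standard error from a limma fit over 14227 genes, and "lower" or "higher" means a Benjamini-Hochberg adjusted p under 0.05 over all of those genes. The number of reads per library is unknown. A relative depth index, read from genes whose values look like a lone count, ran from 0.774 in empty DiI-positive replicate 2 to 1.35 in empty DiI-negative replicate 1, and the 5 lowest were all DiI-positive libraries. Genes of the gate (Itgax and class II genes) were high in every library, with means of 16.44 to 16.97. All 5 of them had a difference below 0 in DiI-positive cells (median -0.16), and 1 was lower. The cells of the gate were not of 1 kind. Comparing the gates, 9 of 10 Kupffer cell markers (liver macrophages) and 10 of 10 B cell markers were higher in DiI-positive cells, and 7 of 10 T and NK cell markers, 6 of 6 monocyte markers, 4 of 6 markers of type 2 conventional dendritic cells (cDC2) and 8 of 18 proliferation genes were lower. Over all genes tested, 5.54% were higher and 6.56% lower. As means of log2 values over each list, in DiI-negative and then DiI-positive libraries, Kupffer cell markers ran from 8.48 to 9.43 and from 9.92 to 12.54, and B cell markers from 11.44 to 12.12 and from 12.16 to 13.25. T and NK cell markers ran from 8.98 to 9.45 and from 7.92 to 8.26, and monocyte markers were at 11.86 or above and between 11.34 and 11.67. The cDC2 markers ran from 11.74 to 12.07 and from 10.92 to 11.58, proliferation genes from 9.37 to 9.66 and from 8.75 to 9.14, and hepatocyte markers, 4 of 10 of them higher, from 5.69 to 6.10 and from 5.87 to 6.90. No marker of these lists was at 0 in all libraries. The curcumin libraries numbered 3 of both gates stood apart by type 1 conventional dendritic cell (cDC1) markers (11.25 and 10.88, others 9.55 to 10.42) and plasmacytoid dendritic cell markers (11.13 and 10.99, others 8.48 to 9.83), as means of log2 values. Of 8 cDC1 markers, 1 was higher and 2 were lower in DiI-positive cells. Curcumin DiI-positive replicate 3 also stood apart by sinusoidal endothelial markers (9.0, others 5.50 to 6.78), a list in which 1 of 6 genes was higher and all 6 differences were above 0 in DiI-positive cells. Its B cell markers were at 12.16, against 12.98 to 13.25 in the other DiI-positive libraries.

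Across all 12 libraries the members covered a wide range of expression. Per kilobase of annotated exon, the highest mean log2 level was that of Acly, ATP citrate lyase, which makes cytosolic acetyl-CoA (10.30), followed by Mvd, mevalonate diphosphate decarboxylase (9.25), and Ebp, the sterol isomerase (9.11). Next came Srebf2 (8.68), Cyp51 and Hmgcs1 (both 8.67), Pmvk and Insig1 (both 8.65). The lowest were Me1 (1.04), the protease gene Mbtps2 (3.08), Fdps, farnesyl diphosphate synthase (3.44), and Acaca, acetyl-CoA carboxylase (3.96). Near copies of Acaca (Gm5182, 99.2% identity over 6118 bases) and Me1 (Gm7049, 98.5% over 1638 bases, and Gm48795, 98.7% over 1159 bases) could share their reads, so these levels are uncertain. Both arms had members near the top and the bottom of that order.

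The question of how cells that took up liposomes differ from cells that did not is asked by comparing DiI-positive with DiI-negative cells. Averaged over both liposomes, 8 of 32 members were lower in DiI-positive cells and 0 were higher, where 6.56% of all genes tested were lower and 5.54% higher. The 8 were Hmgcs1, Mvd, Sqle, Cyp51 and Msmo1 of the sterol arm, Fasn and Elovl6 of the fatty acid arm, and Srebf2. Their log2 differences lay between -0.85 and -0.34. The median over the 32 members was -0.18, with 25 below 0 and 7 above, beside a median of 0.01 over all genes tested. In 5 members (Hmgcs1, Mvd, Sqle, Msmo1 and Srebf2) all 6 DiI-positive libraries lay below all 6 DiI-negative ones, as in 3.52% of all genes tested, and in none did they lie above (2.52%). In bulk samples fewer cells of a type and less RNA per cell cannot be told apart, and the marker lists above, as well as depth, moved with the same gate; their part in these differences was not tested. With the depth index as a covariate, 3 members stayed past the threshold (Hmgcs1, Mvd and Sqle), while the count over all genes went from 1722 to 426. Without the curcumin libraries numbered 3, 9 members passed, in a setting where more genes at large also passed after curcumin liposomes.

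**Figure D1:**
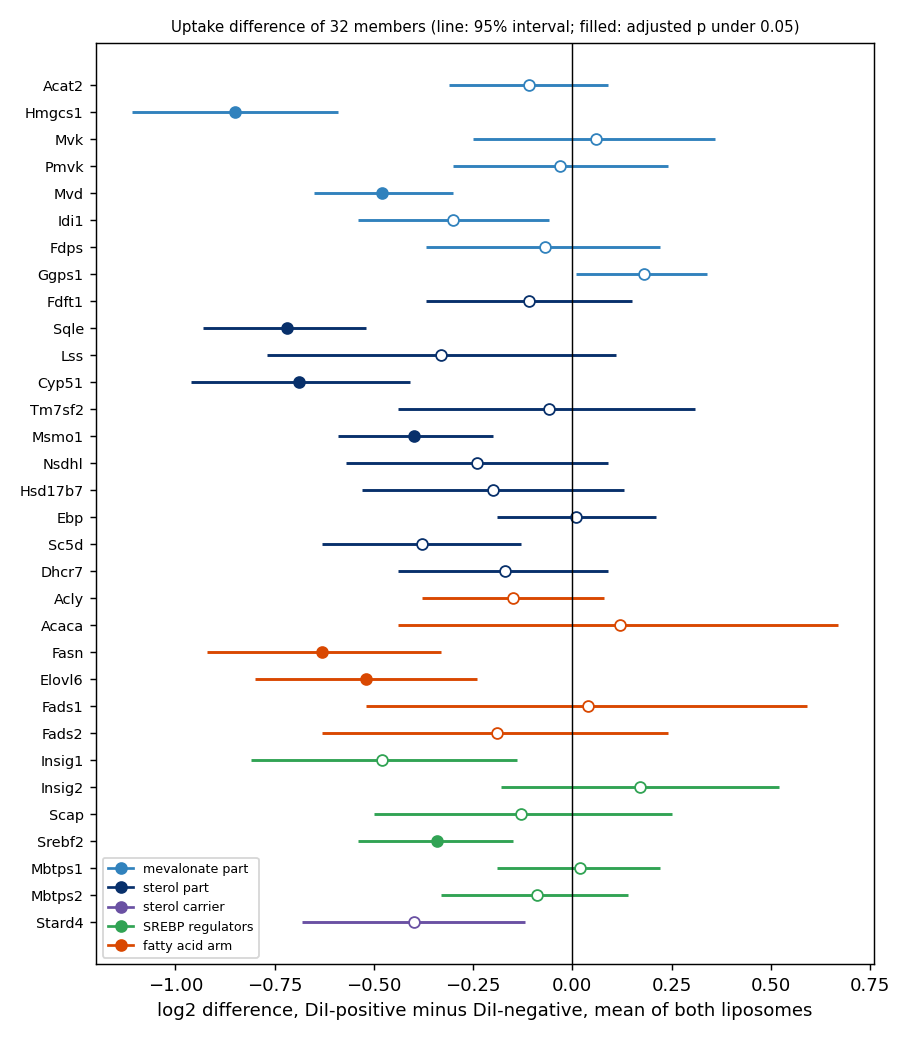
Log2 difference (horizontal axis) of DiI-positive minus DiI-negative cells, mean of both liposomes, for 32 members in pathway order (vertical axis). Lines mark 95% intervals and filled points an adjusted p under 0.05. The filled points run from -0.85 (Hmgcs1) to -0.34 (Srebf2), and no filled point lies right of 0.

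Of the mevalonate part, 2 of 8 enzymes were lower, where 6.56% of all genes tested were. Hmgcs1 (ENSMUSG00000093930, chromosome 13, 119690379 to 119708260 on GRCm38), which joins acetyl-CoA units into the precursor of mevalonate, had the largest difference of all members. In DiI-negative libraries it stood at 11.08, 11.50 and 10.90 after empty and at 11.47, 11.46 and 11.38 after curcumin liposomes. In DiI-positive libraries it stood at 10.16, 10.67 and 10.49 after empty and at 10.29, 10.45 and 10.62 after curcumin liposomes. Every DiI-positive library was below every DiI-negative library, and the gap was smallest between empty DiI-positive replicate 2 and empty DiI-negative replicate 3. The difference was -0.85 ± 0.12, a level 0.554 times that of DiI-negative cells (limma adjusted p = 0.00129). Gm48342, which has no value here, matches Hmgcs1 at 100% identity over 462 bases and could share its reads.

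Mvd (ENSMUSG00000006517, chromosome 8, 122433601 to 122443422), the enzyme that decarboxylates mevalonate diphosphate to the isoprenoid unit, had narrow groups. Its DiI-negative values were 10.22, 10.26 and 10.28 after empty and 10.46, 10.71 and 10.39 after curcumin liposomes. Its DiI-positive values were 9.88, 10.03 and 9.95 and then 9.98, 9.88 and 9.74. The gates did not overlap, and the difference was -0.48 ± 0.08 (limma adjusted p = 0.00350).

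The other 6 mevalonate genes did not pass. Idi1, which isomerises the isoprenoid unit, was at 6.98 in DiI-positive and 7.28 in DiI-negative cells (mean log2; difference -0.30 ± 0.11, limma adjusted p = 0.103). Its level is uncertain too, since Gm13502 matches it at 100% identity over 684 bases (mean log2 value of the copy 2.96). Ggps1, which makes geranylgeranyl diphosphate for protein prenylation and so leads away from sterols, differed by 0.18 ± 0.08 (limma adjusted p = 0.162), the most positive value of the 32. A near copy of Ggps1, Gm5630 (97.2% identity over 903 bases), could share its reads. The thiolase Acat2 (-0.11), the kinases Mvk (0.06) and Pmvk (-0.03) and Fdps (-0.07) had standard errors of 0.09 to 0.14 and adjusted p of 0.492 to 0.911. Reads of Acat2 may be shared with its near copy Acat3 (97.7% identity over 1477 bases, mean log2 value 9.82). Tcp1 also matches Acat2, at 98.7% identity over 445 bases (mean log2 value of Tcp1 11.99), so the level of Acat2 is uncertain.

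Of the 11 enzymes of the sterol part, 3 were lower, where 6.56% of all genes tested were, and 10 had a difference below 0. Sqle, squalene epoxidase, a rate-controlling oxidation (ENSMUSG00000022351, chromosome 15, 59315077 to 59331192), had the smallest p of all members. It stood at 10.69, 10.67 and 10.48 in DiI-negative cells after empty liposomes and at 10.77, 10.74 and 10.82 after curcumin liposomes. In DiI-positive cells it stood at 9.85, 10.11 and 9.95 and at 9.73, 9.99 and 10.22. All DiI-positive libraries lay below all DiI-negative ones, by -0.72 ± 0.09 on average (limma adjusted p = 0.000913).

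Cyp51, the lanosterol demethylase (ENSMUSG00000001467, chromosome 5, 4081145 to 4104746), was at 11.01, 11.26 and 10.72 and at 11.30, 11.35 and 11.27 in DiI-negative libraries, after empty and curcumin liposomes. The DiI-positive values were 10.58, 10.28 and 10.59 and then 10.10, 10.48 and 10.77. Curcumin DiI-positive replicate 3, one of the libraries that stand apart, exceeded empty DiI-negative replicate 3, and the gates were otherwise separate. The difference was -0.69 ± 0.13 (limma adjusted p = 0.00535), and -0.78 without the curcumin libraries numbered 3. With the depth index as a covariate Cyp51 missed the threshold (limma adjusted p = 0.0663).

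Msmo1, the methylsterol oxidase that acts after Cyp51 (ENSMUSG00000031604, chromosome 8, 64718139 to 64733792), had DiI-negative values of 9.72, 10.01 and 9.78 after empty and 9.98, 10.17 and 9.96 after curcumin liposomes. The DiI-positive values were 9.58, 9.29 and 9.58 and then 9.56, 9.63 and 9.59. The gates were separate by a narrow margin after empty liposomes and by a wider one after curcumin liposomes. The difference was -0.40 ± 0.09 (limma adjusted p = 0.0146).

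Sc5d, a desaturase of a late step, just missed the threshold at -0.38 ± 0.11 (limma adjusted p = 0.0507). Lanosterol synthase Lss (-0.33 ± 0.20), the sterol dehydrogenases Nsdhl (-0.24 ± 0.15) and Hsd17b7 (-0.20 ± 0.15), and Dhcr7 (-0.17 ± 0.12), which reduces the cholesterol precursor, had larger errors relative to their size. Squalene synthase Fdft1 (-0.11 ± 0.12), the reductase Tm7sf2 (-0.06 ± 0.17) and Ebp (0.01 ± 0.09) were closest to 0. Adjusted p of these 7 in the limma fit ran from 0.337 to 0.975. The annotated exons of Fdft1 overlap those of the abundant cathepsin gene Ctsb by 774 bases (mean log2 value 16.54), so its value may include reads of Ctsb. The cholesterol carrier Stard4 differed by -0.40 ± 0.13 and missed the threshold (limma adjusted p = 0.0625).

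Of the 6 regulators, 1 was lower, where 6.56% of all genes tested were. Srebf2, which encodes SREBP2 itself and is among its own targets (ENSMUSG00000022463, chromosome 15, 82147181 to 82205379), stood at 11.76, 11.57 and 11.64 and at 11.55, 11.64 and 12.01 in DiI-negative libraries. In DiI-positive libraries it stood at 11.25, 11.27 and 11.44 after empty and at 11.28, 11.37 and 11.50 after curcumin liposomes. The gates did not overlap, though curcumin DiI-positive replicate 3 and curcumin DiI-negative replicate 1 were nearly level. The difference was -0.34 ± 0.09 (limma adjusted p = 0.0285), and the threshold was missed in 8 of 21 alternative settings.

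Insig1, the SREBP-induced anchor of Scap, had a difference of -0.48 ± 0.15 but spread more among curcumin DiI-positive libraries, at 9.59, 10.53 and 10.26, and missed the threshold (limma adjusted p = 0.0642). Its paralog Insig2 differed by 0.17 ± 0.16. Scap (-0.13 ± 0.17) and the protease genes Mbtps1 (0.02 ± 0.09) and Mbtps2 (-0.09 ± 0.11) did not pass either, with limma adjusted p of 0.618 to 0.937. The 95% interval for Mbtps1 was -0.19 to 0.22.

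In the fatty acid arm 2 of the 6 tested enzymes were lower, where 6.56% of all genes tested were. Fasn, fatty acid synthase (ENSMUSG00000025153, chromosome 11, 120805846 to 120824547), stood at 11.47, 11.18 and 11.12 in DiI-negative cells after empty and at 11.59, 11.36 and 11.69 after curcumin liposomes. In DiI-positive cells it stood at 11.35, 10.78 and 10.92 after empty and at 10.34, 10.35 and 10.92 after curcumin liposomes. After empty liposomes the gates overlapped through DiI-positive replicate 1, and after curcumin liposomes they did not. The averaged difference was -0.63 ± 0.13 (limma adjusted p = 0.0119), and -0.41 with the depth index as a covariate, where it missed the threshold (adjusted p = 0.165).

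Elovl6, the elongase that extends palmitate (ENSMUSG00000041220, chromosome 3, 129532355 to 129638495), had DiI-negative values of 8.25, 8.09 and 8.04 and of 7.86, 8.15 and 8.12. The DiI-positive values were 7.68, 7.66 and 7.54 after empty and 7.28, 7.29 and 7.95 after curcumin liposomes. Only curcumin DiI-positive replicate 3 reached into the DiI-negative range. The difference was -0.52 ± 0.13 (limma adjusted p = 0.0238), and it missed the threshold in 6 of 21 alternative settings. Gm11295 matches Elovl6 at 97.4% identity over 805 bases (mean log2 value of the copy -1.56) and could share its reads.

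The enzymes that supply Fasn did not pass. Acly, which makes its acetyl-CoA, differed by -0.15 ± 0.10 (limma adjusted p = 0.390), and Acaca, which makes malonyl-CoA, by 0.12 ± 0.25 (limma adjusted p = 0.814). The desaturases of polyunsaturated fatty acids, Fads2 (-0.19 ± 0.20) and Fads1 (0.04 ± 0.25), had wide errors. The SD of Fads1 reached 0.67 among empty DiI-negative libraries and that of Acaca 0.92 among curcumin DiI-positive libraries, from 7.03 in replicate 1 to 8.87 in replicate 2. The 95% interval of the Acaca difference was -0.44 to 0.67.

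**Figure D2:**
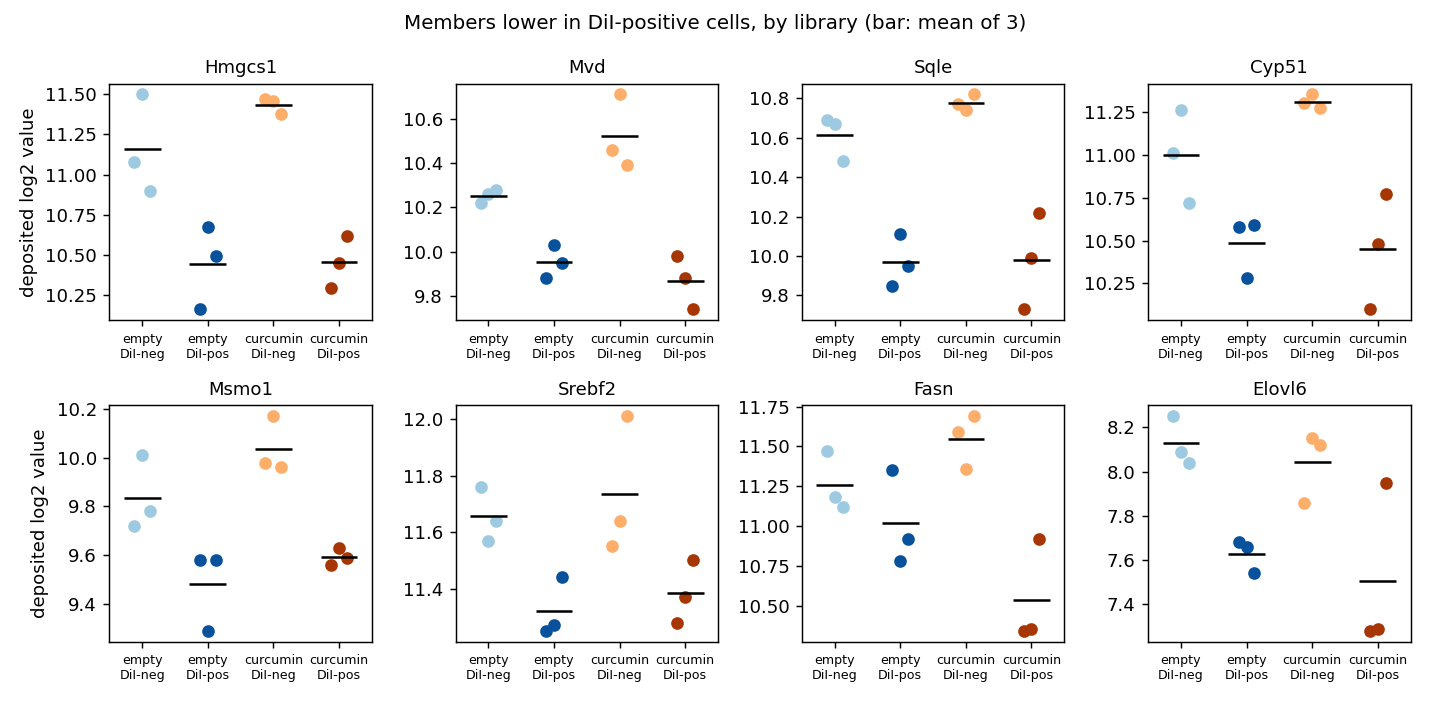
Deposited log2 values (vertical axis) of the 8 members lower in DiI-positive cells, by group; each point is 1 library and each bar the mean of 3, with an axis of its own per gene. The dark DiI-positive points of Hmgcs1, Mvd, Sqle, Msmo1 and Srebf2 lie below all DiI-negative points, while Fasn overlaps after empty liposomes.

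The arms are set side by side here as a description, with no test between them. The mean log2 value of the 19 sterol enzymes was 9.20, 9.29 and 9.23 in the empty and 9.26, 9.34 and 9.30 in the curcumin DiI-negative libraries. It ran from 8.89 to 9.01 in the empty and was 9.12, 9.01 and 9.04 in the curcumin DiI-positive libraries, all below every DiI-negative one. The mean of the 7 fatty acid enzymes ran from 8.25 to 8.72 in DiI-negative and from 8.07 to 8.60 in DiI-positive libraries, and overlapped; this list is shorter and includes Me1 near the floor. The median averaged difference was -0.20 for the sterol arm and -0.17 for the 6 tested of the fatty acid arm, and -0.11 and -0.14 with the depth index as a covariate. After empty liposomes the medians were -0.29 and -0.30, and after curcumin liposomes -0.17 and -0.01. Averaged over both liposomes, within the sterol arm the median was -0.09 for the mevalonate and -0.24 for the sterol part. The difference between the means of the arms in a library, 0.58 to 0.98 in DiI-negative and 0.43 to 1.04 in DiI-positive cells, showed no separation of the gates.

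**Figure D3:**
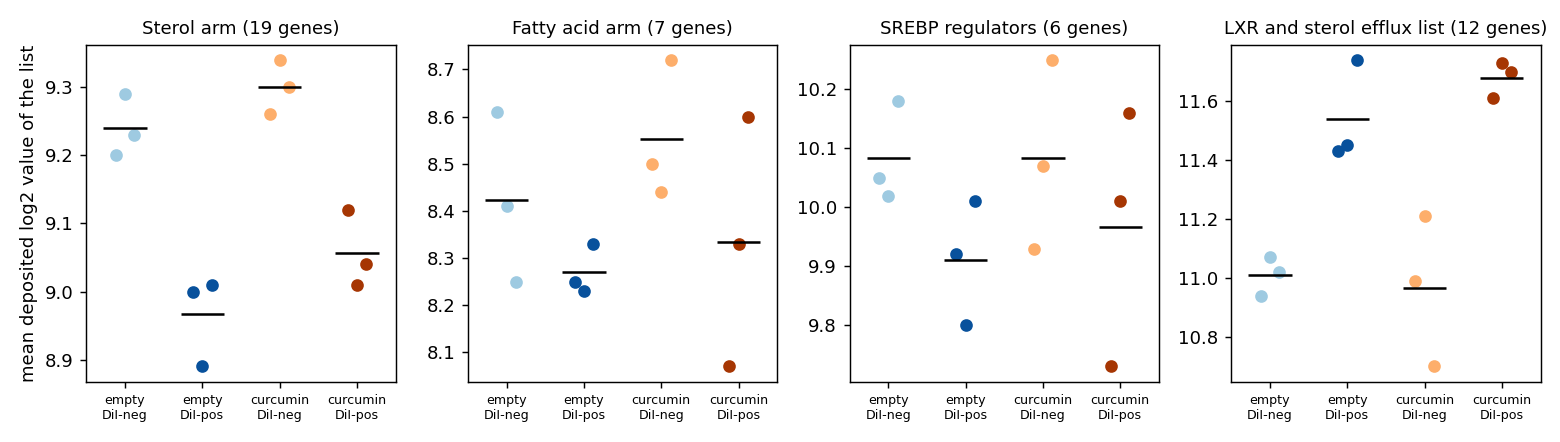
Mean deposited log2 value (vertical axis) over the genes of 4 lists, by group, with 1 point per library and a bar for the mean of 3. The sterol arm is below 9.20 in all DiI-positive libraries, the fatty acid arm overlaps between gates, and the LXR and sterol efflux list lies above 11.21 in all DiI-positive libraries.

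Other genes of lipid handling were counted in the same fit. Of 20 other lipid genes of the SREBP system, 19 were tested, 1 was higher and 1 lower when averaged over both liposomes, with a median of -0.16; these counts are near the shares over all genes tested, 5.54% higher and 6.56% lower. Scd1, the stearoyl-CoA desaturase, which LXR also controls, rose by 1.36 ± 0.15 (limma adjusted p = 0.000324). Erlin1, which takes part in the degradation of sterol-regulated proteins, fell by 0.48 (limma adjusted p = 0.0371). Of 12 genes of sterol efflux and LXR, 8 were higher and 0 lower, with a median of 0.51. Among these Pltp, the phospholipid transfer protein (0.94 ± 0.12), the apolipoprotein Apoc1 (1.68 ± 0.21), the exporter Abca1 (1.01 ± 0.15) and Apoe (1.18 ± 0.20) had the smallest p, with limma adjusted p of 0.000764 to 0.00370. Macrophages are known to express several of these genes, the Kupffer cell markers moved with the same gate as given above, and their part was not tested.

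Taken by liposome, the lower members were fewer. Each of these comparisons rests on 3 against 3 libraries. After empty liposomes 2 of 32 members were lower and 0 higher, where 1.62% of all genes were lower and 1.32% higher. These were Hmgcs1 (-0.72 ± 0.17, limma adjusted p = 0.0434) and Sqle (-0.64 ± 0.13, limma adjusted p = 0.0284). Sc5d was at 9.77, 9.52 and 9.48 in empty DiI-positive and at 10.14, 10.44 and 10.11 in empty DiI-negative libraries. It missed the threshold narrowly (-0.64 ± 0.16, limma adjusted p = 0.0583). Leaving out any of the 6 empty-liposome libraries ended both calls.

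After curcumin liposomes 5 of 32 were lower and 0 higher, where 1.67% of all genes were lower and 1.41% higher. They were Hmgcs1 (-0.98 ± 0.17), Sqle (-0.80 ± 0.13), Mvd (-0.66 ± 0.11), Cyp51 (-0.86 ± 0.18) and Fasn (-1.01 ± 0.19), with limma adjusted p of 0.0115 to 0.0270. Fasn was thus at 0.496 times the DiI-negative level, the lowest ratio of any member in either liposome comparison. Leaving out 1 curcumin library left between 2 (without DiI-negative replicate 1) and 6 (without DiI-positive replicate 3). Without both curcumin libraries numbered 3 the count was 6, where more genes at large passed too, and Fasn stood at -1.13. In a fit of the 6 curcumin libraries alone only Hmgcs1 passed, with an adjusted p of 0.0431, and with the depth index as a covariate only Hmgcs1 passed, with one of 0.0322. Among other SREBP lipid genes Pcyt2, of phosphatidylethanolamine synthesis, was lower after curcumin liposomes (-0.50 ± 0.11, limma adjusted p = 0.0330), and Scd1 was higher after empty (1.45 ± 0.21) and curcumin liposomes (1.28 ± 0.21).

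**Figure D4:**
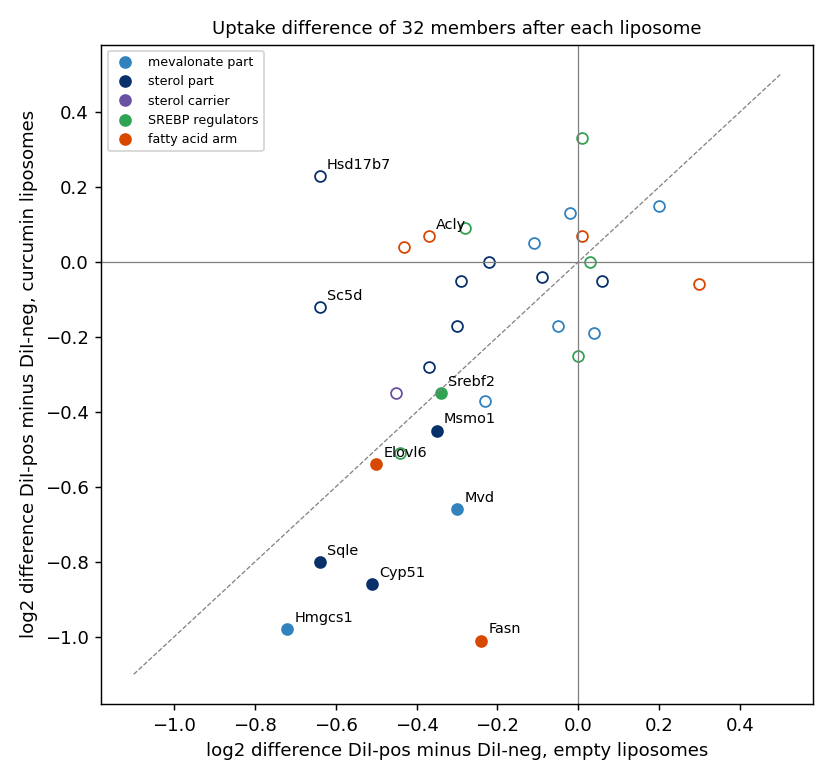
Log2 difference of DiI-positive minus DiI-negative cells after empty (horizontal axis) and curcumin liposomes (vertical axis) for 32 members, filled where the averaged difference passed; the dashed line marks equal differences. The axes use separate libraries; Fasn lies at -0.24 and -1.01, and Hsd17b7 at -0.64 and 0.23.

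Whether the uptake difference depends on the cargo is asked by the difference between the 2 uptake effects. No member and no other gene passed (0% of 14227 genes; 0 of 32 members at an adjusted p under 0.05), and at an unadjusted p under 0.05 there were 4 of 32 members, where 3.70% of all genes were. The 4 were Hsd17b7 (0.87 ± 0.30), Fasn (-0.77 ± 0.27), Sc5d (0.52 ± 0.23) and Mvd (-0.36 ± 0.16), all with a limma adjusted p of 0.999. Of Hsd17b7, DiI-positive values were 7.04, 6.44 and 7.20 after empty and 7.58, 7.80 and 7.31 after curcumin liposomes, against DiI-negative values of 7.25, 7.71 and 7.63 and of 7.21, 7.51 and 7.28. The larger number of lower members after curcumin than after empty liposomes therefore does not show that the liposomes differed.

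Curcumin against empty liposomes was compared in each gate. In DiI-positive cells 0 of 32 members and 0% of all genes passed. At an unadjusted p under 0.05 there were 6 members, where 8.19% of all genes were: Fdft1 (0.40 ± 0.17), Hsd17b7 (0.67 ± 0.21), Sc5d (0.43 ± 0.16), Acly (0.36 ± 0.15) and Fads2 (0.77 ± 0.28) were nominally above and Fasn (-0.48 ± 0.19) below, with limma adjusted p of 0.464 to 0.575. Hmgcs1, Sqle and Cyp51, which were lower in DiI-positive cells, differed by 0.02 ± 0.17, 0.01 ± 0.13 and -0.04 ± 0.18 between the liposomes, with 95% intervals of -0.35 to 0.38, -0.28 to 0.30 and -0.42 to 0.35. Sterol arm, fatty acid arm and regulators had medians of 0.02, 0.07 and 0.05. In the same comparison 8 of 10 hepatocyte markers had an unadjusted p under 0.05 (median 0.52). All 10 Kupffer cell markers were above 0 (median 0.89) and all 10 B cell markers below it (median -0.28). None of these markers passed, and their part in the members' differences was not tested.

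In DiI-negative cells 0 of 32 members and 0% of all genes passed, and 1 member was at an unadjusted p under 0.05, where 3.30% of all genes were. That member was Mvd (0.27 ± 0.11, limma adjusted p = 1), with curcumin values of 10.46, 10.71 and 10.39 against empty values of 10.22, 10.26 and 10.28. The 95% interval was 0.02 to 0.52. The members' differences otherwise lay between -0.32 (Mbtps2) and 0.32 (Idi1), with a median of 0.15 over all members and 0.00 over all genes tested. In the same comparison 4 of 5 tested neutrophil markers had an unadjusted p under 0.05, and all 5 were below 0 (median -0.85). All 4 plasmacytoid dendritic cell markers were above 0 (median 0.72). None of these markers passed, and their part in the members' differences was not tested.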

How the data were processed

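RNA of sorted cells was amplified as cDNA (SMARTer kit) and sequenced from Nextera XT libraries, per the labels' protocols. The authors deposited gene-level log2 values, 1 column per library. The submitters' processing notes name STAR 2.4.0d, DESeq2 1.8.1 and GRCm38. Which counter, annotation and transform the authors used is not given in the sources used here. In the labels there are 24 records for 12 library codes, and a code was taken as 1 library, and the code letters were read as empty or curcumin liposome and DiI-positive or DiI-negative.

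Symbols, coordinates and exon lengths came from GENCODE M21, which named 99.3% of genes not at 0. The 14227 genes whose mean log2 value was 4 or more entered 1 limma 3.58.1 fit in R 4.3.3 with a mean per group, 8 residual and 3.51 prior degrees of freedom, and a prior variance that followed the mean. Adjusted p-values are Benjamini-Hochberg values. The fit was tested on simulated data. Members and lists were chosen with earlier results of these data known. Values in every library are given for members past the threshold in any comparison, and of the others in each arm those with the 3 smallest p are named. Of other lists, genes past the threshold with the 4 smallest p are named. The relative depth index rests on 1009 genes. Alternatives changed the filter, prior, library weights, scaling, libraries and replicate block; depth as a covariate and leaving out the curcumin libraries numbered 3 were added after seeing the data.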

Additional observations from a re-analysis of the deposited data

How the results depend on the processing

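Direction was the same in every alternative for the 8 members lower in the averaged comparison. Of 21 alternatives, Hmgcs1, Mvd and Sqle passed in 21, Cyp51, Fasn and Msmo1 in 20, Elovl6 in 15 and Srebf2 in 13. With the depth index as a covariate, the counts were 3 members and 426 genes averaged, 1 and 114 after empty, and 1 and 72 after curcumin liposomes, and the sterol arm medians were -0.11, -0.17 and -0.10. Without the filter on low values, 0 members and 263 genes passed after empty and 248 genes after curcumin liposomes. Library weights gave 789 genes after empty liposomes, and a fit of only the 6 curcumin libraries 1 member and 40 genes. Without both curcumin libraries numbered 3, 706 genes passed after curcumin liposomes (437 in the main fit), 3 for curcumin in DiI-positive cells and 1 for the difference between uptake effects. The cause of these shifts was not tested.

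Leaving out 1 library at a time gave 6 to 9 members averaged, 0 to 3 after empty and 2 to 6 after curcumin liposomes, with 85 to 659 and 114 to 1088 genes in the latter comparisons. Averaged, 6 members and 1149 genes passed without empty DiI-negative replicate 1, against 8 and 1722 with all libraries. The sterol arm median ran from -0.28 to -0.15 averaged, -0.31 to -0.21 after empty and -0.22 to -0.11 after curcumin liposomes. For curcumin in DiI-positive cells 0 to 4 genes passed, and for the difference between uptake effects 0 to 2. Pairing by library number is stated in no label. Of 18 same-numbered pairs, 2 had correlated deviations above 0.1 (range -0.11 to 0.33), as had 2 of 36 pairs with different numbers (-0.24 to 0.20). Only pairs of both gates within a liposome can stem from the same mice. Same-numbered, these had correlations of 0.079, 0.004 and 0.076 after empty and 0.066, 0.035 and 0.328 after curcumin liposomes. With different numbers they ran from -0.245 to 0.197. The numbers were not treated as pairs, though 8 of 12 libraries correlated best with their own number, a hint from the data and not from the design. With a replicate block, 8 members and 1616 genes passed averaged, 2 and 405 after empty and 5 and 407 after curcumin liposomes. That block shares its numbers over both liposomes, and a pairing within each liposome was not fitted. Read numbers per library are unknown, and with 3 libraries a group small differences could not be resolved.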
